A study of Mus musculus with 10 samples.

Results

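The 10 genes described here are 2 ligands of the vascular endothelial growth factor (VEGF) family, Vegfa and Vegfb, their receptors Kdr and Flt1, the co-receptor Nrp1, and 5 genes typical of blood vessel endothelium, Pecam1, Emcn, Eng, Tek and Egfl7. They were taken by symbol from the 35087 gene symbols in the deposited tables, and all 10 were found. Transcripts were measured in granulosa cells cut by laser from ovaries of wild-type C57B6/J female mice aged 3 weeks. Of the 10 libraries, 4 came from mice injected into the peritoneum with the antioxidant N-acetyl-L-cysteine (NAC) at 150 mg/kg on 3 consecutive days, and 6 from control mice injected with normal saline. Ovaries of both groups were taken on day 4 after the first dose, and the labels list batch 1 throughout. No label ties a library to an animal, so the p-values measure only the spread between captured samples, which may be technical or shared within an animal.

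VEGF-A is secreted by cells around a vessel and acts on endothelial cells through the tyrosine kinase receptors VEGFR2 (Kdr) and VEGFR1 (Flt1), with neuropilin 1 (Nrp1) as co-receptor; VEGF-B binds VEGFR1 and neuropilin 1. In a growing follicle the granulosa layer holds no capillaries. The vessels lie in the theca, outside the basement membrane, and granulosa and theca cells can both make the ligand. The tables do not tell which cell in a capture a read came from.

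All 10 genes were low. A library held 116461 to 2488408 estimated reads, and a member had between 16 reads (Tek) and 485 (Vegfb) over the 10 libraries. NAC 3 was the shallowest library, where 1 read equals 8.05 CPM (the unit of level used here: reads relative to the library total, adjusted by TMM factors). It held 5 reads of Pecam1, 2 of Vegfb, 1 each of Kdr and Nrp1, and 0 of the other 6 genes. A count of 0 there allows up to 24.2 CPM (3 reads), a limit above the mean of most members. In the other libraries the same limit was 1.33 to 6.14 CPM. These limits cover counting error only, because reads copied by amplification do not each stand for a molecule. NAC 2 and NAC 3 also had reads for fewer of the tested genes (84.8% and 85.1%) than the rest (97.7% to 99.5%).

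The captures carried granulosa RNA in every library and little endothelial RNA. The summed level of 12 granulosa markers was 6956 to 13564 CPM in NAC and 11420 to 41235 in saline. Its median was lower in NAC, at 11117 CPM against 37189 in saline. The part of this difference in the endothelial values was not tested. The summed level of 16 blood endothelial markers, 7 of them members, was 48.3 to 268 CPM in NAC and 32.5 to 141 in saline. Cdh5, the endothelial cadherin, ran from 0 to 7.94 CPM. Plvap, a gene of fenestrated capillaries, was at 0 in 8 of the 10 libraries and Vwf in 6. Others of the list were higher, with Cd34 from 0 to 32.8 CPM and Esam from 0 to 18.4. The lymphatic regulator Prox1 was at 0 in all 10. The 5 lymphatic markers together summed to 32.8 to 96.7 CPM in NAC and 21.0 to 72.0 in saline, and Pdpn alone of them had reads in every library.

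The start regions of 4 members are printed to show the sequence at the start of both ligands, the main receptor and the most AT-rich member window. RefSeq windows of 300 bases on GRCm38.p6, from 250 before to 50 after a start, were found for 9 members, with more than 1 start for Vegfa and Egfl7; Pecam1 had no entry. Capitals mark GGGCGG (the GC box bound by SP factors) and GGAA (the core of ETS factor sites, a family active in endothelium) on either strand. The windows lie at chr17:46032328-46032627 on the minus strand (Vegfa), chr19:6987602-6987901 on the minus strand (Vegfb), chr5:75978406-75978705 on the minus strand (Kdr) and chr3:137340828-137341127 on the plus strand (Emcn).
Vegfa: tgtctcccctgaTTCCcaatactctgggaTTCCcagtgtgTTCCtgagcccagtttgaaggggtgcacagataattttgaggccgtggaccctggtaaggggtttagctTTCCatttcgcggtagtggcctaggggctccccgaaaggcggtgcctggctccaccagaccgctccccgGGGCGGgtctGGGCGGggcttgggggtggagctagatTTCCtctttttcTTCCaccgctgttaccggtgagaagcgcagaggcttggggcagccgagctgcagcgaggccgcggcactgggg
Vegfb: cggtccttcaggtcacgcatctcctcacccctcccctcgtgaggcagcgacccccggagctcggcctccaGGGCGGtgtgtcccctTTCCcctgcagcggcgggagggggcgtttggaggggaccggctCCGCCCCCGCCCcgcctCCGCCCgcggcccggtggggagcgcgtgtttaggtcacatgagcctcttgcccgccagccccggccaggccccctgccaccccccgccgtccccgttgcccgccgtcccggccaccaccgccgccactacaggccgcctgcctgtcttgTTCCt
Kdr: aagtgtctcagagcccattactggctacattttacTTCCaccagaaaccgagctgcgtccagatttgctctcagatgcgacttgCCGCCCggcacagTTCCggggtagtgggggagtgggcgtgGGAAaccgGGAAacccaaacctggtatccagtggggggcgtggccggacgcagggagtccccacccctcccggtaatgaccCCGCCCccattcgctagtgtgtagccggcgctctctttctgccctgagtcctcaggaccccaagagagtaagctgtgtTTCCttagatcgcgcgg
Emcn: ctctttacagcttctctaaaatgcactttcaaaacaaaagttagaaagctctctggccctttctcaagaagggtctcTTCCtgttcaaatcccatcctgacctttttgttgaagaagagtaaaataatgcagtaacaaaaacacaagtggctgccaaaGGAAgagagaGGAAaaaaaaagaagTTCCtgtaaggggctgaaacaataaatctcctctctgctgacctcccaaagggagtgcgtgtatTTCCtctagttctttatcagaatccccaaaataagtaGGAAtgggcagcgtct

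GC content was 62.0% in this Vegfa window, 75.3% for Vegfb, 60.7% for Kdr and 41.0% for Emcn. It was 70.7% for Flt1, 64.0% for Nrp1, 63.3% for Eng, 52.0% for Tek, 58.3% to 67.3% for the Egfl7 windows and 59.3% for the other Vegfa window, so the ligands and the endothelial genes overlapped. The median was 52.7% over 32851 RefSeq windows of the same length. GGGCGG was found 2 times for Vegfa, 4 times for Vegfb and 2 times for Kdr, and not for Emcn, Eng or Tek; 35.7% of all windows hold it. GGAA was found 6 times each for Vegfa and Emcn, 5 times for Kdr and 2 times for Vegfb, where the median of all windows is 3 and 96.0% hold at least 1. ACGTG, 1 form of the core of the site that HIF-1 binds, was in none of these 4 windows. ACGTG was in 1 of the 12 member windows, that of the second Vegfa start at chr17:46025114-46025413, and in 19.6% of all windows. The other form, GCGTG, was not counted and can be seen in the printed Vegfb, Kdr and Emcn windows. These matches describe letters in short windows and show no binding.

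**Figure D1:**
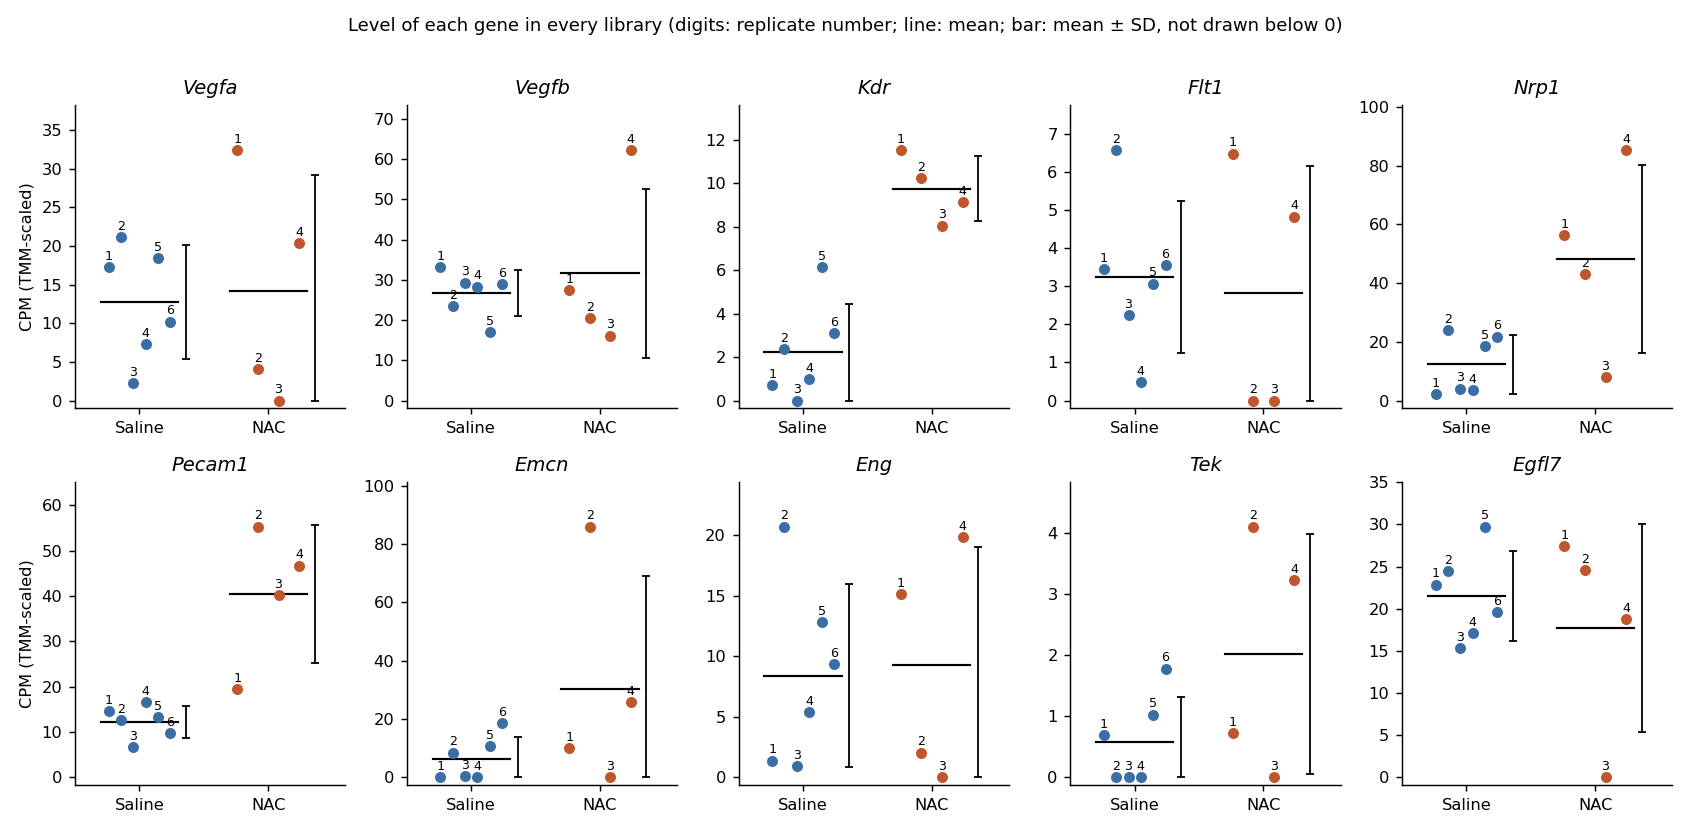
Level of each of the 10 genes in CPM on the vertical axis (each panel has its own scale) in 6 saline and 4 NAC libraries; points are libraries with their replicate number, lines are means and bars are SD. Kdr and Pecam1 are higher in every NAC library than in any saline library, but Kdr in NAC 3 is 1 read, which alone equals 8.05 CPM. Vegfb in saline lies within 16.9 to 33.2 CPM, and NAC 3 is at 0 for 6 of the genes.

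Neither ligand passed the test between NAC and saline. Vegfa, the main growth signal for capillaries (GRCm38 chromosome 17, 46016993 to 46032369), stood at 32.5, 4.10, 0 and 20.4 CPM in NAC 1 to 4. In saline it ran from 2.25 to 21.2 CPM with a median of 13.8. The groups overlapped, with NAC 1 above the saline range and NAC 3 below it. The NAC libraries averaged 14.2 ± 15.0 CPM (SD, n = 4), against 12.8 ± 7.36 for saline (SD, n = 6). edgeR gave log2 0.38 with SE 0.72 and an adjusted p = 0.818. Without NAC 1 the log2 fold was -0.30.

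Vegfb (chromosome 19, 6982473 to 6987651), a family member linked more to fatty acid uptake and vessel survival than to sprouting, was the more even of the pair. It stood at 27.4, 20.5, 16.1 and 62.3 CPM in NAC 1 to 4, and at 16.9 to 33.2 in saline with a median of 28.6. It had reads in all 10 libraries, with NAC 4 above the saline range and NAC 3 just below it. The NAC libraries averaged 31.6 ± 21.0 CPM (SD, n = 4), against 26.7 ± 5.70 for saline (SD, n = 6). edgeR gave log2 0.35 with SE 0.42 and an adjusted p = 0.695. Without NAC 4 the log2 fold was -0.33.

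The balance of the ligands did not differ detectably between the groups. The log2 ratio of Vegfa to Vegfb (1 CPM added to each) was 0.24, -2.08, -4.10 and -1.56 in NAC 1 to 4 and ran from -3.22 to 0.12 in saline. Vegfb had more CPM than Vegfa in 8 of the libraries, with NAC 1 and saline 5 as the exceptions. The ratio averaged -1.88 ± 1.78 under NAC (SD, n = 4) and -1.23 ± 1.22 under saline (SD, n = 6), a difference of -0.65 (two-sided exact permutation p = 0.490 over 210 splits, where the smallest possible is 0.00476). The sign rested on NAC 3, where Vegfa had 0 reads and Vegfb 2: without that library the difference was 0.10.

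**Figure D2:**
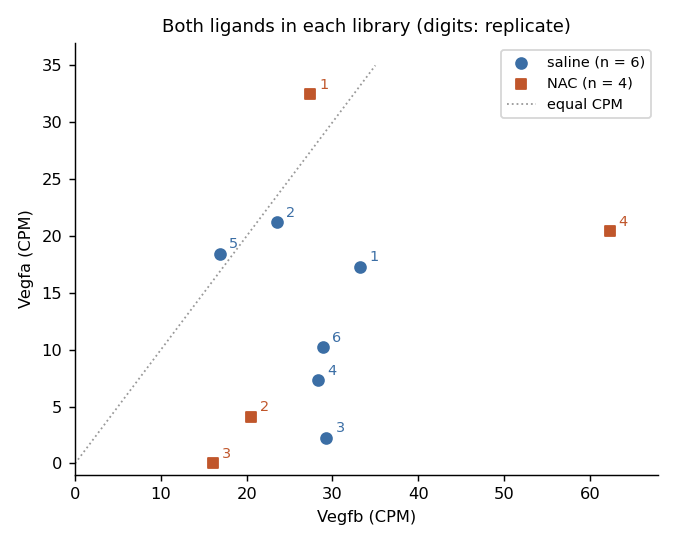
Vegfa against Vegfb in each library, both axes in CPM; points are libraries with their replicate number, and the dotted line marks equal CPM. Only NAC 1 and saline 5 lie above the line, and Vegfa spreads from 2.25 to 21.2 CPM among saline libraries with similar Vegfb.

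Among the receptors, the mean levels of Kdr and Nrp1 were higher in NAC and that of Flt1 was not. None passed edgeR's test, and limma-voom called Nrp1. Kdr, which carries most of the mitogenic signal of VEGF-A (chromosome 5, 75932827 to 75978458), stood at 11.5, 10.2, 8.05 and 9.13 CPM in NAC 1 to 4. Saline ran from 0 to 6.15 CPM with a median of 1.67. The groups did not overlap, but the values rest on 39 reads in NAC, 1 of them in NAC 3, and 27 in saline. In NAC 3 any read at all would lie above the saline range, so that library cannot speak to the overlap. The NAC libraries averaged 9.74 ± 1.495 CPM (SD, n = 4), against 2.21 ± 2.24 for saline (SD, n = 6). The edgeR log2 fold was 2.12 (SE 0.91, adjusted p = 0.261).

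Nrp1, which is also made by cells other than endothelium (chromosome 8, 128358604 to 128503363), stood at 56.3, 43.0, 8.05 and 85.4 CPM in NAC 1 to 4. Saline ran from 2.08 to 24.02 CPM with a median of 11.3. Except for NAC 3, with its 1 read, every NAC library lay above the saline range. The NAC libraries averaged 48.2 ± 32.1 CPM (SD, n = 4), against 12.3 ± 10.2 for saline (SD, n = 6). edgeR gave log2 2.06 with SE 0.65 and an adjusted p = 0.148, and limma-voom gave log2 2.71 and an adjusted p = 0.0273.

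Flt1, whose product binds VEGF-A tightly and can act as a decoy (chromosome 5, 147561604 to 147726011), had too few reads for the filter on low counts. It stood at 6.49, 0, 0 and 4.83 CPM in NAC 1 to 4 and 0.49 to 6.59 in saline, from 18 and 39 reads. NAC 1 and NAC 4 lay inside the saline range, and the averages were 2.83 ± 3.34 CPM under NAC (SD, n = 4) and 3.24 ± 2.00 under saline (SD, n = 6). With no filter its log2 fold was 0.10 (SE 1.16, edgeR adjusted p = 0.975). The soluble and the membrane form share the gene symbol and cannot be told apart here.

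None of the other endothelial genes passed edgeR's test. The log2 fold was 1.70 for Pecam1, 2.29 for Emcn, 0.38 for Eng and -0.10 for Egfl7, and Tek was too low to test; whether these differ from each other was not tested. Pecam1 (CD31, an adhesion molecule of endothelial junctions; chromosome 11, 106654217 to 106750628) had the smallest p of the members. It stood at 19.5, 55.3, 40.3 and 46.7 CPM in NAC 1 to 4, against 6.76 to 16.6 in saline with a median of 13.02. The groups did not overlap, and the value of NAC 3 rests on 5 reads. The NAC libraries averaged 40.4 ± 15.3 CPM (SD, n = 4), against 12.3 ± 3.51 for saline (SD, n = 6). edgeR gave log2 1.70 with SE 0.45 and an adjusted p = 0.0996. It thus missed the threshold of 0.05 in edgeR's test, while DESeq2 (adjusted p = 0.00996) and limma-voom (adjusted p = 0.0288) called it.

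Emcn (endomucin, a sialomucin of capillaries and veins; chromosome 3, 137341067 to 137432185) stood at 10.1, 86.0, 0 and 25.8 CPM in NAC 1 to 4. Saline ran from 0 to 18.7 CPM with a median of 4.46, and 2 saline libraries had no read. NAC 2 and NAC 4 lay above the saline range and the other NAC libraries within it. The averages were 30.5 ± 38.5 CPM under NAC (SD, n = 4) and 6.39 ± 7.63 under saline (SD, n = 6). The edgeR log2 fold was 2.29 (SE 1.06, adjusted p = 0.299) and was 1.12 without NAC 2, the library with the highest value.

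Eng (endoglin, a TGF-beta co-receptor; chromosome 2, 32646595 to 32682669) stood at 15.1, 2.05, 0 and 19.9 CPM in NAC 1 to 4 and 0.90 to 20.7 in saline with a median of 7.35. It averaged 9.27 ± 9.75 CPM under NAC (SD, n = 4) and 8.42 ± 7.57 under saline (SD, n = 6). No NAC library lay above the saline range, and NAC 3 was below it (edgeR log2 fold 0.38, SE 0.88, adjusted p = 0.855), and without NAC 4 the log2 fold was -0.25. Eng overlaps Fpgs on the opposite strand, and no source used here states that counting used strand, so reads of the overlap are uncertain.

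Egfl7, which encodes a matrix protein secreted by endothelium and hosts the microRNA gene Mir126a (chromosome 2, 26580014 to 26593120), stood at 27.4, 24.6, 0 and 18.8 CPM in NAC 1 to 4. It ran from 15.3 to 29.7 CPM in saline with a median of 21.2, and averaged 17.7 ± 12.3 under NAC (SD, n = 4) and 21.5 ± 5.29 under saline (SD, n = 6). The library with no read was NAC 3, and the others lay within the saline range (edgeR log2 fold -0.10, SE 0.51, adjusted p = 0.940). Without NAC 3 the log2 fold was 0.07. Egfl7 shares its locus with Gm20532 on the same strand and overlaps Agpat2 on the opposite strand, so its reads are uncertain in the same way.

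Tek, the receptor of the angiopoietins (chromosome 4, 94739289 to 94874976), had 9 reads in NAC and 7 in saline and was not tested. Its values were 0.72, 4.10, 0 and 3.22 CPM in NAC 1 to 4 and 0 to 1.78 in saline, where 3 libraries had no read. NAC 2 and NAC 4 lay above the saline range, and the averages were 2.01 ± 1.96 under NAC (SD, n = 4) and 0.583 ± 0.729 under saline (SD, n = 6). With no filter its log2 fold was 1.78 (SE 1.47, edgeR adjusted p = 0.554).

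**Figure D3:**
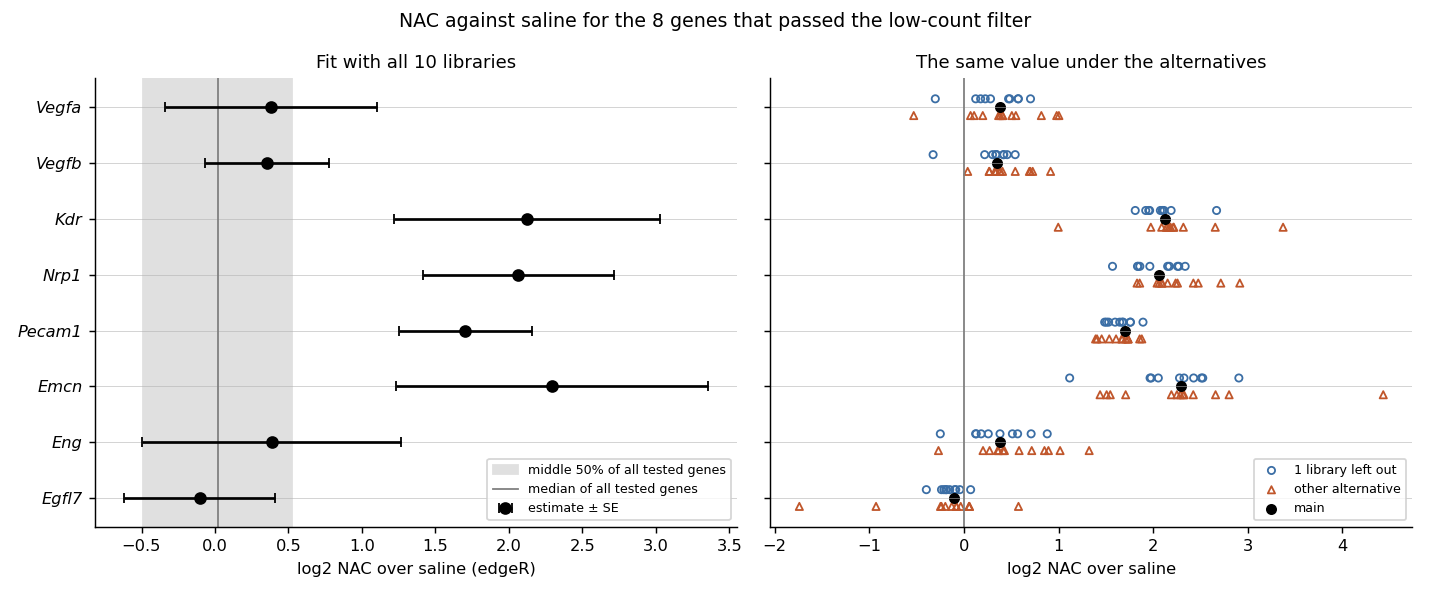
Left, log2 fold of NAC over saline with SE for the 8 tested genes, with the median and the middle 50% of 10945 genes behind them; right, the same value with 1 library left out and under the other alternatives. Kdr, Nrp1, Pecam1 and Emcn stay above 0 in every alternative that gave a value, while Vegfa, Vegfb, Eng and Egfl7 lie on both sides.

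In all, 8 of the 10 genes were tested among 10945, and 0 passed edgeR's test at an adjusted p under 0.05, where 0.0731% of all genes passed in either direction (0.0183% higher and 0.0548% lower in NAC). At an unadjusted p under 0.05 there were 4, Kdr, Nrp1, Pecam1 and Emcn, all higher in NAC, where 7.82% of all genes were higher and 8.34% lower. The same 4 had a log2 fold above 1.5, as did 3.41% of all genes. The log2 fold was above 0 for 7 of the 8 and for 51% of all genes. The groups did not overlap for 2 of the 8, Kdr and Pecam1, where this held for 5.38% of all genes. For Kdr this rests on 1 read in NAC 3. The 6 tested receptors and endothelial genes had a median log2 fold of 1.88, against 0.02 over all genes tested. Flt1 and Tek are not in these counts. Kdr is in them only because its NAC values let it pass the low-count filter, as its saline median was 1.67 CPM. The counts and the median therefore cannot serve as support for Kdr. Nrp1 and Emcn passed the filter through NAC and saline libraries together. Without NAC 2 and NAC 3, the libraries with the fewest genes detected, 0 members passed, and the log2 folds were 2.14 for Kdr, 2.48 for Nrp1, 1.41 for Pecam1 and 1.44 for Emcn. DESeq2 called Pecam1 (adjusted p = 0.00996) and gave Kdr no adjusted p, and 1.98% of genes were called higher in NAC by that tool. Limma-voom with sample quality weights called Pecam1 (adjusted p = 0.0288) and Nrp1 (adjusted p = 0.0273), where 2.61% were called higher. Limma on log2(TPM + 1) or log2(TPM + 0.1) called none of the 8.

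Base composition moved with the comparison across the whole transcriptome. With all genes in 4 equal groups by GC content of their longest transcript, the median log2 fold was 0.44 in the lowest group and -0.41 in the highest. Nrp1 (41.9% GC) and Emcn (40.7%) fall in the lowest group, and Vegfb (62.6%), Eng (57.4%) and Egfl7 (57.1%) in the highest. Kdr (49.4%), Pecam1 (50.2%) and Vegfa (50.9%) fall in the third, where the median was -0.18. With offsets for GC content and length the log2 folds were 1.98 for Kdr, 1.86 for Nrp1, 1.88 for Pecam1 and 1.71 for Emcn, and 0.51 for Vegfa, 0.92 for Vegfb, 0.72 for Eng and 0.58 for Egfl7. None passed in that fit, and the smallest edgeR adjusted p was 0.101, for Pecam1.

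Endothelial RNA varied among captures of the same group, and in saline its lowest libraries were also those with the least stroma and pericyte RNA. The summed level of the 8 receptors and endothelial genes was 147, 225, 56.4 and 214 CPM in NAC 1 to 4, and 45.7, 99.4, 29.7, 43.9, 95.3 and 87.6 in saline 1 to 6. Saline 1, 3 and 4 were the lowest of the saline group for the sum, and also for Kdr, Nrp1, Emcn and Eng each taken alone. The same 3 libraries had the lowest summed levels of the 8 stroma markers (collagens, Dcn, Pdgfra and others; 96.9, 140 and 180 CPM, against 474, 582 and 983 in saline 2, 5 and 6). They were also the lowest for the 10 pericyte and smooth muscle markers (53.3, 26.1 and 69.8 CPM, against 102, 190 and 358). The other 4 genes did not follow this order. Saline 4 and saline 1 were the highest saline libraries for Pecam1, at 16.6 and 14.5 CPM. Egfl7 and Flt1 were higher in saline 1 (22.8 and 3.46 CPM) than in saline 6 (19.6) and saline 5 (3.07), respectively, and Tek had reads in saline 1 (0.692 CPM) and none in saline 2.

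In NAC the stroma markers summed to 1108, 2230, 64.4 and 845 CPM and the pericyte and smooth muscle markers to 262, 731, 24.2 and 169 (replicates 1 to 4). In NAC 1, 2 and 4 all 8 stroma markers had reads, and in NAC 3 there were 3. The median stroma sum was 977 CPM in NAC and 327 in saline. NAC 1 and NAC 2 lay above all 6 saline libraries, NAC 4 above 5 of them, and NAC 3, with 8 stroma reads, lay below all of them. The 7 theca markers did not share this difference. Their sum had a median of 1065 CPM in NAC (266 to 3045) and 1093 in saline (584 to 2630). Fewer cells of a type and less RNA per cell cannot be told apart in such captures, and the part of surrounding tissue in the values of Kdr, Nrp1, Pecam1 and Emcn was not tested beyond the following fit. With the stroma score of each library as a covariate, the log2 folds were 2.22 for Kdr, 2.15 for Nrp1, 1.71 for Pecam1 and 2.80 for Emcn. The edgeR adjusted p-values were 0.275, 0.0644, 0.127 and 0.152. The score adds 2 reads to each count whatever the depth, which lifts markers with no read most in NAC 3. It therefore does not measure stroma RNA alike in all libraries, and the fit adjusts for it only in part. The 9 endothelial markers outside the member list summed to 46.2, 86.0, 0 and 68.2 CPM in NAC 1 to 4 and to 6.76 to 64.1 in saline.

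**Figure D4:**
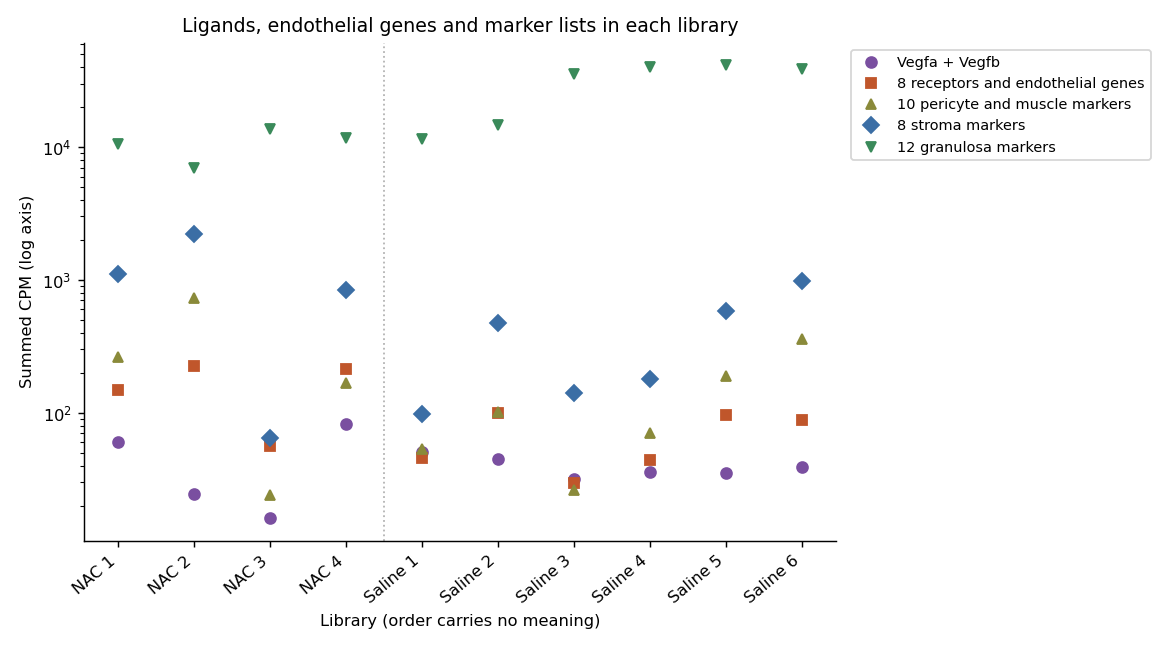
Summed CPM (log axis) of both ligands, of the 8 receptors and endothelial genes and of the stroma, pericyte and granulosa marker lists in each library. In saline the ligand sum lies within 31.6 to 50.5 CPM, while the endothelial sum is lowest in saline 1, 3 and 4, where the stroma and pericyte sums are also lowest.

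The sum of the 2 ligands did not share this order. It was 59.9, 24.6, 16.1 and 82.7 CPM in NAC 1 to 4 and 31.6 to 50.5 in saline, where saline 1, with the least stroma RNA, had the most. Vegfa alone followed the order in part. It was lowest in saline 3 (2.25 CPM) and saline 4 (7.32), but saline 1 (17.3) stood above saline 6 (10.2). Across the 10 libraries its Spearman correlation with the receptors and endothelial genes ran from -0.018 (Pecam1) to 0.891 (Eng) and 0.894 (Flt1). Other signs of capture content sat beside NAC 4, which had the highest Nrp1 and Vegfb. Its 5 red cell markers summed to 851 CPM, against 0 to 56.3 in the other NAC libraries and 3.07 to 85.7 in saline. The 8 leukocyte markers summed to 0 to 47.1 CPM in NAC and 0 to 19.3 in saline. The part of blood RNA in the members' values was not tested.

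Per kilobase of the longest annotated transcript, Vegfb had the highest mean level of the members in both groups. In saline the order was Vegfb at 20.8 ± 4.45 CPM per kilobase (SD, n = 6), Egfl7 at 11.5 ± 2.83, Vegfa at 3.71 ± 2.13, Pecam1 at 3.57 ± 1.02, Nrp1 at 3.37 ± 2.79, Eng at 2.46 ± 2.21, Emcn at 1.82 ± 2.17, Flt1 at 0.470 ± 0.290, Kdr at 0.374 ± 0.378 and Tek at 0.125 ± 0.157. From Vegfa down to Tek, neighbours in this order differed by less than the larger of their SDs. In NAC, Vegfb stood at 24.6 ± 16.4 CPM per kilobase (SD, n = 4), Nrp1 at 13.2 ± 8.80, Pecam1 at 11.8 ± 4.44, Egfl7 at 9.49 ± 6.61 and Emcn at 8.65 ± 10.9. Vegfa followed at 4.13 ± 4.35, Eng at 2.71 ± 2.85, Kdr at 1.64 ± 0.252, Tek at 0.432 ± 0.421 and Flt1 at 0.411 ± 0.484. Among these neighbours, Kdr and Tek alone differed by more than the larger of their SDs. The longest transcript is only a guide to the length read: the deposited tables list Egfl7 with lengths of 52.9 to 806 bases, although its shortest transcript in GENCODE M21 has 307. Pecam1 is listed with 467 to 587 bases (shortest transcript 681) and Vegfa with 127 to 1230.5 (shortest 463). The order by deposited length was not computed and may differ.

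Among the genes whose order across the 10 libraries was most like that of Vegfa were Miip, Dyrk1a, Tbce and Tra2a. Each had a Spearman correlation of 0.988 with Vegfa, among 9553 genes with a mean of at least 10 CPM. For Egfl7, the endothelial gene with the most reads, 23 genes reached 0.988, and Fam98a, Gna11, Coq10a, Vdac2 and Rab31 led by Pearson's r. A correlation above 0.9 was reached by 134 genes with Vegfa and 634 with Egfl7. The order is that of log2 CPM after 2 reads were added to each count, whatever the depth. For Vegfa this placed NAC 3, which had no read, above saline 3, which had reads. The order is thus not that of the CPM given above. The 10 points share depth and capture content, and NAC 3 was at 0 for both genes, so these values are descriptive.

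The wider pathway was described with 7 lists of 76 genes, of which 39 were tested; 0 passed edgeR's test, and 8 had an unadjusted p under 0.05 (6 higher and 2 lower in NAC), where 16.2% of all genes had one in either direction. Other VEGF family genes were scarce. Pgf had no read in any library, Vegfc had 1.80 CPM in saline 3 and no read elsewhere, and Flt4, the lymphatic receptor, stayed at or under 4.39 CPM. Vegfd ran from 0 to 17.3 CPM in NAC and 0 to 6.92 in saline. Nrp2, a co-receptor, was the 1 gene tested of this list: it stood at 37.5, 32.8, 0 and 41.9 CPM in NAC 1 to 4 and 0 to 24.5 in saline (edgeR log2 fold 1.69, SE 0.88, adjusted p = 0.354). Of the angiopoietin list, the 1 gene tested was Angpt4, a TIE2 ligand (edgeR log2 fold 0.15, SE 1.02, adjusted p = 0.959). The angiopoietin genes Angpt1 and Angpt2 had too few reads, with at most 7.21 and 20.5 CPM.

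Of the 28 other blood endothelial genes, 10 were tested, 7 with a log2 fold above 0 and a median of 0.67. S1pr1, a sphingosine phosphate receptor gene, averaged 12.99 ± 11.9 CPM under NAC (SD, n = 4) and 1.62 ± 2.15 under saline (SD, n = 6), with log2 2.80 and an edgeR adjusted p = 0.235. Fli1, an ETS factor of endothelium and blood, had 10.4 ± 7.71 and 2.36 ± 3.96 CPM (log2 fold 2.34, adjusted p = 0.272). Ramp2, a partner of the adrenomedullin receptor, had 19.3 ± 13.9 and 12.7 ± 4.93 CPM (log2 fold 0.78, adjusted p = 0.531). Limma-voom, which called 2.61% of all genes higher in NAC, called S1pr1 and Fli1, and DESeq2 called none of the 6 genes to which it gave an adjusted p. S1pr1 and Fli1 passed the low-count filter mainly through their NAC values, with a saline median of 0.93 CPM each. The list is not specific in these captures: Arhgap31 stood at 354 to 675 CPM and Sox18 at 18.4 to 128 CPM, in libraries where Cdh5 stayed at or under 7.94.

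Notch and tip cell genes had 4 tested members, 3 above 0, with a median of 0.89. Hey2, a Notch target, averaged 76.3 ± 58.1 CPM under NAC (SD, n = 4) and 37.5 ± 4.65 under saline (SD, n = 6), with log2 0.87, an edgeR adjusted p = 0.305 and 161 CPM in NAC 3. Its log2 fold was 0.28 without NAC 3 and 0.08 without NAC 2 and NAC 3. Notch1 and its ligand gene Jag1 had log2 folds of 1.43 and 0.92 (adjusted p = 0.372 and 0.621). The tip cell genes Dll4 and Esm1 did not pass the filter. Limma-voom called none of the 4, and DESeq2 none of the 2 to which it gave an adjusted p.

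Extracellular inhibitors of angiogenesis had 5 tested members, 4 above 0, with a median of 0.98. Serpinf1, which encodes the inhibitor PEDF, had 136, 41.0, 346 and 310 CPM in NAC 1 to 4 and 47.1 to 143 in saline (edgeR log2 fold 1.25, SE 0.45, adjusted p = 0.196). It passed in 3 of 24 alternatives: without NAC 2 (edgeR adjusted p = 0.0456), after thinning to the shallowest library (edgeR, 0.0459) and with limma-voom (0.0214). Those fits called 39 of 11540, 55 of 2787 and 522 of 10945 genes. In the other 21 it did not pass, and the largest adjusted p was 0.737, in edgeR with the replicate block. Timp3, a metalloproteinase inhibitor that binds VEGFR2, had a log2 fold of 1.23 (adjusted p = 0.279), and Col18a1, the source of endostatin, of 0.98 (adjusted p = 0.612). DESeq2 called none of the 3 genes to which it gave an adjusted p.

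The oxygen-sensing regulators of Vegfa had 6 tested members, 3 above and 3 below 0, with a median of -0.06. Egln2, a HIF prolyl hydroxylase gene, averaged 43.8 ± 30.6 CPM under NAC (SD, n = 4) and 93.7 ± 30.9 under saline (SD, n = 6), with log2 -0.93 and an edgeR adjusted p = 0.273. Vhl, which marks hydroxylated HIF for degradation, had a log2 fold of -0.88 (adjusted p = 0.528), and Epas1, which encodes HIF-2 alpha, of -0.36 (adjusted p = 0.578). DESeq2 and limma-voom called none.

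Signalling genes below the receptors are used by many cell types, and 12 of the 14 were tested, 7 above 0, with a median of 0.03. Shb, an adaptor that binds VEGFR2, stood at 4.33, 2.05, 0 and 5.91 CPM in NAC 1 to 4 and 9.22 to 27.3 in saline. The groups did not overlap, as for 5.38% of all genes, but a count of 0 in NAC 3 allows up to 24.2 CPM. That library therefore cannot speak to the overlap. The edgeR log2 fold of Shb was -2.30 (SE 0.66, adjusted p = 0.116). DESeq2, which called 2.63% of genes lower in NAC, called it (adjusted p = 0.0292), and limma-voom did not (adjusted p = 0.164). Pik3r1, a PI3-kinase subunit gene, had a log2 fold of 0.97 (edgeR adjusted p = 0.232). Limma-voom, which called 2.61% of genes higher in NAC, called it (adjusted p = 0.0363), and DESeq2 did not (adjusted p = 0.132). Akt1 had a log2 fold of -0.85 (edgeR adjusted p = 0.331).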

How the data were processed

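Each library had 1 gene-level table, which, per the submitters' processing notes, the authors made with Salmon and GRCm38 (version and annotation not given in the sources used here). The authors deposited estimated counts and TPM, with a transcript length and an effective length in bases, per the file headers. Rows without a gene symbol held 0.496% to 0.638% of a library's reads and entered neither library sizes nor tests.

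Estimated counts were rounded and tested with edgeR 4.0.16 in R 4.3.3 (robust quasi-likelihood test, TMM factors, default low-count filter), NAC against saline over 10945 genes, with Benjamini-Hochberg adjustment and calls at an adjusted p under 0.05. SE is the log2 fold divided by the root of its F statistic. The deposited TPM entered alternatives only, as did DESeq2 1.42.0 and limma 3.58.1. For the ligand ratio, a permutation test (exact, two-sided) compared the groups. A stroma score is the mean centred log2 CPM (prior count 2) of 8 stroma markers. The fit was tested on simulated data. Positions, lengths and GC content came from GENCODE M21 (GRCm38), and start windows from RefSeq.

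The members, gene lists and alternatives were chosen with earlier results of these data known; the stroma covariate was added after seeing the data. Named genes are all 10 members, the 3 tested genes of each list with the smallest unadjusted p, and the 5 genes most like Vegfa and like the endothelial member with the most reads (ties by Pearson's r); 1 gene that this rule gives is not reported here. Genes named outside this rule, including those said to be scarce or unspecific, were chosen after their values were seen.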

Additional observations from a re-analysis of the deposited data

Results flagged for a closer look

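A library far from the rest of its group was looked for with Dixon's test in 86 sets of group values (members, named pathway genes, the ligand ratio and summed lists), and 4 were found, where chance gives about 1 in 20. None was a value of the 10 genes. Fli1 stood at 10.4 CPM in saline 1, with the next saline library at 1.41. The oocyte markers summed to 1430 CPM in saline 4, with the next at 526. The red cell markers summed to 851 CPM in NAC 4, with the next NAC library at 56.3, and to 85.7 in saline 2, with the next saline library at 20.4.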

How the results depend on the processing

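Under 24 alternatives the 8 tested members gave 183 values, of which 170 kept their sign and side of the threshold, 3 passed (Pecam1 with DESeq2 and limma-voom, Nrp1 with limma-voom) and 10 turned sign. Kdr (1.00 to 3.37), Nrp1 (1.57 to 2.92), Pecam1 (1.39 to 1.89) and Emcn (1.12 to 4.43) stayed positive. Vegfa was -0.53 on log2(TPM + 0.1) and -0.30 without NAC 1 (-0.30 to 0.70 with a library left out), Vegfb -0.33 without NAC 4 (-0.33 to 0.54), and Eng -0.27 on log2(TPM + 0.1) and -0.25 without NAC 4 (-0.25 to 0.88). Egfl7 was 0.0532 with library size alone, 0.0565 with detected genes as a covariate, 0.0585 without NAC 2 and NAC 3, 0.58 with GC and length offsets, and 0.0709 without NAC 3 (-0.40 to 0.0709). Angpt4 was -1.69 with limma-voom, -0.52 on log2(TPM + 1), -1.78 on log2(TPM + 0.1), -0.73 with detected genes as a covariate, -0.86 without NAC 2 and NAC 3, -0.58 with the replicate block, -1.02 without NAC 2, -0.15 without saline 3 and -0.10 without saline 4 (-1.02 to 0.56); Ramp2 was -0.40 on log2(TPM + 0.1). The cause was not tested.

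The count of 8 genes called over the transcriptome became 455 with DESeq2, 522 with limma-voom, 226 with no filter, 55 after thinning, 4 with GC and length offsets, 2 without NAC 2 and NAC 3, 1 with detected genes as a covariate, and 1 to 58 with a library left out (58 without NAC 1, 39 without NAC 2, 22 without saline 1, 1 without NAC 3). Same-numbered libraries did not deviate together (correlations -0.03 to 0.08, where a number is all they share, and none was most like its own number); with the replicate block 1 gene was called and no member. Thinned to the shallowest library, no member passed the filter. The ligand ratio turned to 0.57 without NAC 2 and NAC 3 and ranged from -1.35 to 0.0952 with a library left out. Depth limits every value that rests on NAC 3.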
